A study of Mus musculus with 8 samples.

Results

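The genes described here are 28 genes of cholesterol synthesis and of its control by SREBP2, measured in newborn mouse liver among 23526 genes tested. They were taken as the probes that the array design names for these genes (Sc4mol is also written Msmo1), and each gene was represented by its probe with the highest mean. Fragments of the large liver lobe came from C57BL/6J pups taken by caesarean section (E19.5) and killed after 4 h. In the knockout group (4 arrays) the chromosome inherited from the mother lacked the miR-379/miR-410 microRNA cluster, and the wild-type group (4 arrays) were littermates without it. The cluster lies in an imprinted domain whose microRNAs are made from the maternal chromosome, and the deletion is carried by every cell type of the liver and not by hepatocytes alone. The samples are numbered here knockout 1 to 4 and wild-type 1 to 4, and each was measured on 1 single-colour array.

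Cells make cholesterol from acetyl-CoA, first through mevalonate to farnesyl diphosphate and then through squalene and lanosterol to cholesterol. SREBP2 is a membrane-bound transcription factor that switches on nearly every gene of this route. When sterols are scarce its escort Scap carries it from the endoplasmic reticulum to the Golgi, where proteases free the active part, and when sterols are plentiful an Insig protein holds Scap back. The liver is a main site of this synthesis, and a pup at birth turns from placental nutrients to fasting and then to milk.

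Levels are log2 signals relative to the 75th percentile of the same array. They were compared between samples of 1 gene and never between genes, and each difference is the knockout mean minus the wild-type mean, with its standard error (SE). Mirg, the noncoding host transcript of microRNAs in that domain, stood at -0.54 ± 0.33 in knockout and 2.16 ± 0.056 in wild-type livers (SD, n = 4 arrays each), a difference of -2.70 (limma adjusted p = 0.000327). On both sides replicate 4 resembled a mixture of other arrays of its genotype and may not be an independent sample, so counts, stage medians and the main genes are also given from the other 6 arrays (3 per group). All arrays lay on 1 slide, knockout in 1 column and wild-type in the other, and an effect of the column cannot be told apart from genotype. Knockout and wild-type arrays of the same number lay in the same row of the slide. Xist, made from the inactive X chromosome of females, exceeded background clearly on 3 knockout arrays (1, 2 and 4) and on 0 wild-type arrays. The Y-linked gene Ddx3y did so on 2 knockout arrays (3 and 4) and on 3 wild-type arrays (all but wild-type 3), so sex and genotype partly coincide. All 10 hepatocyte markers were well above background on all 8 arrays, and their mean relative to the wild-type mean ran from -0.071 to 0.010 in knockout and from -0.12 to 0.089 in wild-type livers. The mean of 7 pancreas genes ran on that scale from -2.13 to -1.92 in knockout livers, against -1.19, -2.39, 2.28 and 1.31 in wild-type 1 to 4.

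All 28 genes were measured, with every chosen probe well above background on all 8 arrays. In knockout livers 26 of the 28 had a higher mean than in wild-type livers, against 56.5% of all genes tested. Their median difference was 0.36, against 0.027 over all genes. None passed the test singly. By limma, 0 of 28 were called higher and 0 lower at an adjusted p under 0.05, where 0.0383% of all genes were called higher and 0.179% lower. At an unadjusted p under 0.05, 6 of 28 were higher (6.84% of all genes) and 1 was lower (6.48% of all genes). These were Pmvk, Mvd, Fdps, Lss, Tm7sf2 and Ebp on the higher side and Insig2 on the lower side. With array weights, which gave most weight to replicate 4 of each group, 6 of 28 were called higher (6.97% of all genes) and 1, Insig2, lower (6.28% of all genes). With replicate 4 left out, array weights called 0 of 28.

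With 6 arrays the median difference was 0.37, against 0.025 over all genes, and 26 of the 28 means were higher in knockout livers (55.6% of all genes). Again 0 of 28 passed in either direction, with 0% of all genes called higher and 0.0255% lower. Tm7sf2 then had an unadjusted p under 0.05 on the higher side (3.45% of all genes), and Insig2 on the lower side (3.87%). With 8 arrays, differences of 0.3 log2 or more in the higher direction were found for 15 of 28 genes, against 8.11% of all genes. These 15 were Insig1, 5 enzymes of the mevalonate stage, 8 of the sterol stage and Stard4. With 6 arrays they were 17 of 28, Srebf2 and Nsdhl added, against 9.97% of all genes.

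**Figure D1:**
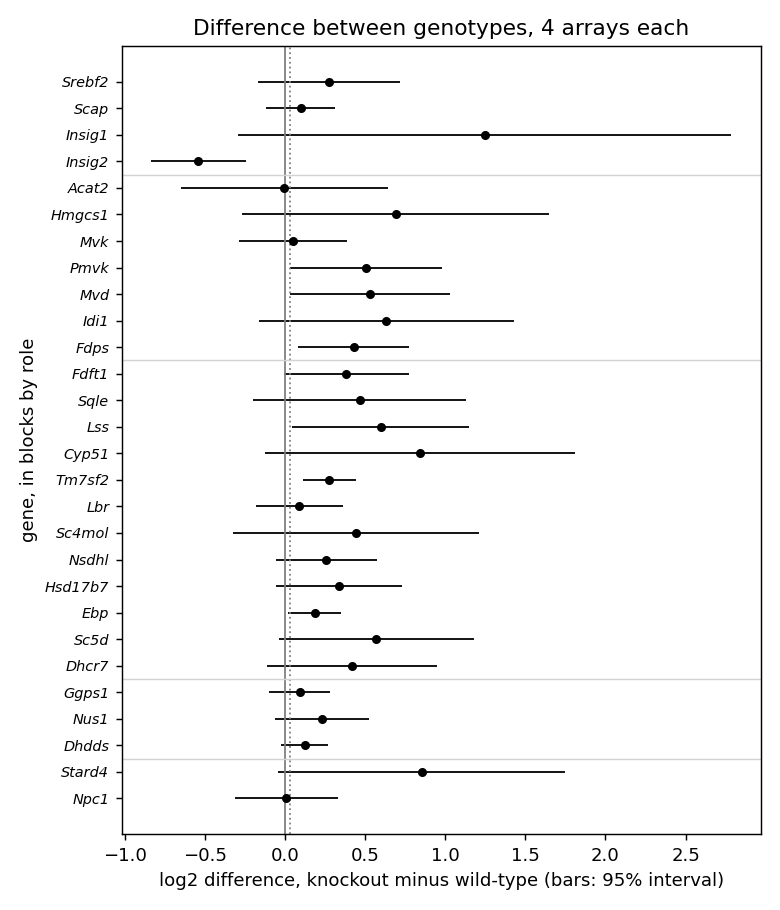
Knockout minus wild-type log2 difference of each of the 28 genes, in blocks by role, with its 95% interval from limma (n = 4 arrays per genotype). The solid line marks 0 and the dotted line the median of all genes tested (0.027). Only Acat2 (-0.0052) and Insig2 (-0.54) lie below 0.

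The median 95% interval reached 0.42 to either side of the difference, against 0.26 over all genes. The range over the 4 knockout arrays exceeded the difference in 24 of 28 genes and the range over the 4 wild-type arrays in 25 of 28, shares near those of all genes (84.4% and 90.1%). The arrays of the groups did not overlap for 3 genes with higher knockout values, Tm7sf2, Ebp and Dhdds (4.72% of all genes), and for 1 with lower values, Insig2 (4.33%). The same 4 genes were apart with 6 arrays, where 7.38% and 6.14% of all genes were. The count depended on single arrays. Leaving out wild-type 3, the highest wild-type array for most of these genes, by its place raises the count, and 11 of 28 were then apart with higher knockout values (7.21% of all genes). Leaving out knockout 2, the lowest knockout array for most of them, left 5 apart in that direction (8.36% of all genes).

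Among the genes that control SREBP2, the Insig pair differed in opposite directions. Insig1 and Insig2 encode the related membrane proteins that retain Scap in the endoplasmic reticulum, and Insig1 is itself switched on by SREBP2. Insig1 (probe at chr5:28404246-28404305 of mm9) had levels of 0.59, -0.69, 2.21 and 1.83 in knockout 1 to 4, against -1.21, -0.78, 0.83 and 0.11 in wild-type 1 to 4. Knockout 3 and 4 lay above every wild-type array, while knockout 1 and 2 lay within the wild-type range. The difference was 1.24 (SE 0.68, 95% interval -0.30 to 2.79, limma adjusted p = 0.453), the largest of the 28 differences and also the widest interval. With 6 arrays it was 1.09 (limma adjusted p = 0.768).

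Insig2 (probe at chr1:123201085-123201144 of mm9, minus strand) had levels of 3.22, 3.81, 3.57 and 3.66 in knockout 1 to 4, against 4.11, 4.27, 3.99 and 4.05 in wild-type 1 to 4. Every knockout array lay below every wild-type array. The difference was -0.54 (SE 0.13, 95% interval -0.84 to -0.25), a level 0.686 times that of wild-type. It did not pass after adjustment (limma adjusted p = 0.146). The two-sided exact permutation p was 0.0286, the smallest that 8 arrays can give. It was the same for Tm7sf2, Ebp and Dhdds, since groups of 4 that do not overlap always give this value. With 6 arrays the difference of Insig2 was -0.59 (limma adjusted p = 0.573), and the exact test could not go below 0.1. A second Insig2 probe differed by -0.36, but its groups overlapped, with knockout 2 at 2.16 above wild-type 3 at 2.11. In a bulk fragment, fewer cells of a type and less RNA per cell cannot be told apart.

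Srebf2, the gene of SREBP2, had levels of 0.43, -0.0047, 0.61 and 0.19 in knockout 1 to 4, against -0.41, -0.0036, 0.45 and 0.096 in wild-type 1 to 4. The groups overlapped and the difference was 0.27 (SE 0.19, limma adjusted p = 0.556). Its second probe differed by -0.083, so the probes did not share a direction. Scap, the sterol-sensing escort, averaged 5.36 ± 0.16 in knockout and 5.27 ± 0.080 in wild-type livers (SD, n = 4), a difference of 0.096 (SE 0.095, limma adjusted p = 0.669). With 6 arrays Srebf2 differed by 0.33 and Scap by 0.023. The median difference of these 4 control genes was 0.19, and 0.18 with 6 arrays.

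**Figure D2:**
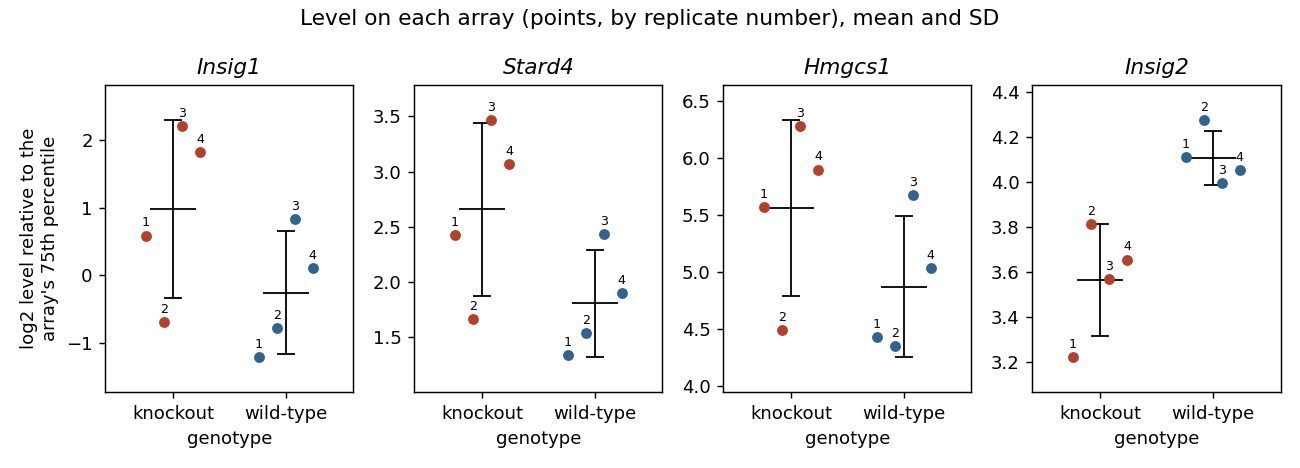
Log2 level of Insig1, Stard4, Hmgcs1 and Insig2 on each array relative to the array's 75th percentile, knockout left and wild-type right in each panel. Points are arrays with their replicate number, and bars are the mean and SD (n = 4). Knockout 3 is the highest point for Insig1 (2.21), Stard4 (3.46) and Hmgcs1 (6.28), while all knockout points lie below all wild-type points for Insig2. The vertical scale differs between panels.

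In the mevalonate and isoprenoid stage, 6 of 7 genes had a higher mean in knockout livers and 0 passed the test, with a median difference of 0.50 (0.47 with 6 arrays). Hmgcs1, the cytosolic synthase that joins acetyl groups into HMG-CoA, had levels of 5.57, 4.49, 6.28 and 5.90 in knockout 1 to 4, against 4.43, 4.35, 5.67 and 5.04 in wild-type 1 to 4. The groups overlapped, since wild-type 3 exceeded knockout 1 and 2. The difference was 0.69 (SE 0.42, limma adjusted p = 0.497). Acat2, the cytosolic thiolase that starts the pathway, differed by -0.0052 (SE 0.28), and its knockout arrays all lay within the wild-type range of -0.34 to 1.02. With 6 arrays the difference of Acat2 was 0.12 and that of Hmgcs1 0.63.

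Pmvk and Mvd carry the phosphorylated mevalonate on to isopentenyl diphosphate. Pmvk differed by 0.50 (SE 0.21), with knockout 1 to 4 averaging 4.92 ± 0.37 and wild-type 1 to 4 averaging 4.41 ± 0.30 (SD, n = 4). Mvd had levels of 1.47, 0.96, 1.77 and 1.55 in knockout livers, against 0.76, 0.53, 1.40 and 0.96 in wild-type livers. Both gave a limma adjusted p of 0.353 (unadjusted p = 0.0397 for Pmvk and 0.0401 for Mvd). Mvk, the kinase before them in the route, stood apart from these neighbours with 3.27 ± 0.20 in knockout and 3.22 ± 0.25 in wild-type livers, a difference of 0.048 (SE 0.15). Its second probe differed by 0.038.

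Idi1 interconverts the isoprenoid building blocks, and Fdps joins them to farnesyl diphosphate, the branch point to sterols, dolichol and prenyl groups. Idi1 had levels of 3.18, 2.39, 4.08 and 3.75 in knockout 1 to 4, against 2.54, 2.41, 3.20 and 2.72 in wild-type 1 to 4. Knockout 3 and 4 were above all wild-type arrays, and knockout 2 was below all of them. The difference was 0.63 (SE 0.35, limma adjusted p = 0.461). Fdps had levels of 6.53, 6.44, 6.96 and 6.87 in knockout livers, against 6.01, 6.22, 6.54 and 6.31 in wild-type livers. Here only wild-type 3 reached into the knockout range, and the difference of 0.43 (SE 0.15) had a limma adjusted p of 0.286. With 6 arrays Pmvk differed by 0.47, Mvd by 0.51, Idi1 by 0.50 and Fdps by 0.38.

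In the sterol stage all 12 genes had a higher mean in knockout livers, 0 passed, and the median difference was 0.40 (0.39 with 6 arrays). The differences ran from 0.088 for Lbr to 0.84 for Cyp51. The first committed steps are Fdft1, which makes squalene, Sqle, which oxidises it, and Lss, which closes the ring to lanosterol. Fdft1 differed by 0.38 (SE 0.17) and Sqle by 0.46 (SE 0.29). Lss had levels of 3.05, 2.77, 3.43 and 3.28 in knockout 1 to 4, against 1.99, 2.33, 3.11 and 2.71 in wild-type 1 to 4. All knockout arrays lay above wild-type 1, 2 and 4, and wild-type 3 lay above knockout 1 and 2. The difference of Lss was 0.60 (SE 0.24, limma adjusted p = 0.346), and 0.61 with 6 arrays.

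Cyp51, the lanosterol demethylase, had levels of -0.42, -1.51, 0.50 and -0.069 in knockout livers, against -1.27, -1.90, -0.62 and -1.06 in wild-type livers. Cyp51 differed by 0.84 (SE 0.42, limma adjusted p = 0.431) with 8 arrays and by 0.79 with 6. Tm7sf2 and Lbr encode sterol reductases with overlapping activity at the next step, and Lbr is also a receptor of the inner nuclear membrane. Tm7sf2 (probe at chr19:6062882-6062941 of mm9, minus strand) had levels of 5.15, 5.15, 5.32 and 5.19 in knockout 1 to 4, against 5.03, 4.89, 4.94 and 4.86 in wild-type 1 to 4. All knockout arrays were above all wild-type arrays. The difference was small and even, at 0.27 (SE 0.073, limma adjusted p = 0.180, two-sided exact permutation p = 0.0286), and 0.25 with 6 arrays (limma adjusted p = 0.664). Its second probe differed by 0.30. Lbr differed by 0.088 (SE 0.12) and by 0.52 on its second probe.

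The remaining sterol enzymes remove methyl groups and move double bonds. Sc4mol, the methyl oxidase, differed by 0.44 (SE 0.34), Nsdhl, the decarboxylating dehydrogenase that follows it, by 0.26 (SE 0.14), and Hsd17b7, the ketoreductase, by 0.33 (SE 0.17). The other Hsd17b7 probes differed by 0.53 and 0.36. Ebp, the sterol isomerase, had levels of 6.49, 6.48, 6.49 and 6.52 in knockout livers, against 6.17, 6.38, 6.40 and 6.30 in wild-type livers. Its groups did not overlap, and the difference was 0.18 (SE 0.072, limma adjusted p = 0.329, two-sided exact permutation p = 0.0286), and 0.17 with 6 arrays. Sc5d, a desaturase, differed by 0.57 (SE 0.27) and Dhcr7, the last reductase of the route, by 0.41 (SE 0.23). Nsdhl and Ebp are X-linked. Knockout 3, the array without Xist well above background, had 1.91 for Nsdhl and 6.49 for Ebp, inside the range of the other knockout arrays for both.

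In the non-sterol branch the 3 differences ran from 0.091 to 0.23, 0 passed, and the median was 0.12 with 8 and with 6 arrays. Ggps1, which makes the lipid that anchors many small GTPases, differed by 0.091 (SE 0.083). Nus1 and Dhdds form the enzyme that starts dolichol synthesis. Nus1 differed by 0.23 (SE 0.13), and its second probe by -0.17. Dhdds had levels of 0.58, 0.62, 0.70 and 0.57 in knockout livers, against 0.56, 0.52, 0.46 and 0.44 in wild-type livers. The groups did not overlap, and the difference was 0.12 (SE 0.065, limma adjusted p = 0.452), and also 0.12 with 6 arrays. Its other probe differed by 0.031.

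Of the sterol movers, Stard4 resembled Insig1 and Npc1 did not. Stard4, a soluble sterol carrier switched on by SREBP2, had levels of 2.43, 1.67, 3.46 and 3.07 in knockout 1 to 4, against 1.34, 1.54, 2.44 and 1.90 in wild-type 1 to 4. Its difference was 0.85 (SE 0.39, 95% interval -0.044 to 1.75, limma adjusted p = 0.397) and its second probe differed by 1.29. Npc1, which exports cholesterol from lysosomes, differed by 0.0073 (SE 0.14), with all knockout arrays between 0.23 and 0.36 and wild-type arrays between 0.046 and 0.72. With 6 arrays Npc1 differed by -0.095 and Stard4 by 0.75.

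Most of these genes shared the highest array of each genotype and the lowest knockout array, but the full order of the arrays varied between genes. Averaged over the 28 genes and set against the wild-type mean, knockout 1 to 4 stood at 0.32, -0.041, 0.66 and 0.49, and wild-type 1 to 4 at -0.22, -0.19, 0.36 and 0.048. Knockout 2 thus lay below wild-type 3 and 4. Knockout 3 was the highest knockout array for 19 of 28 genes (24.2% of all genes), and knockout 2 the lowest for 21 (25.5%). Wild-type 3 was the highest wild-type array for 21 of 28 (24% of all genes). Knockout 4 lay between knockout 2 and 3 for 23 genes (52.3% of all genes), and wild-type 4 lay between wild-type 2 and 3 for 22 (48.1%). Arrays of the same number shared a slide row, and the part of the row in the order of the arrays was not tested. With knockout 3 and 4 left out the median difference was 0.18, and with wild-type 3 and 4 left out it was 0.59. With the Xist level as a covariate it was 0.63, with the Ddx3y level as a covariate it was 0.33, and the part of sex in the result cannot be told apart fully from genotype.

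**Figure D3:**
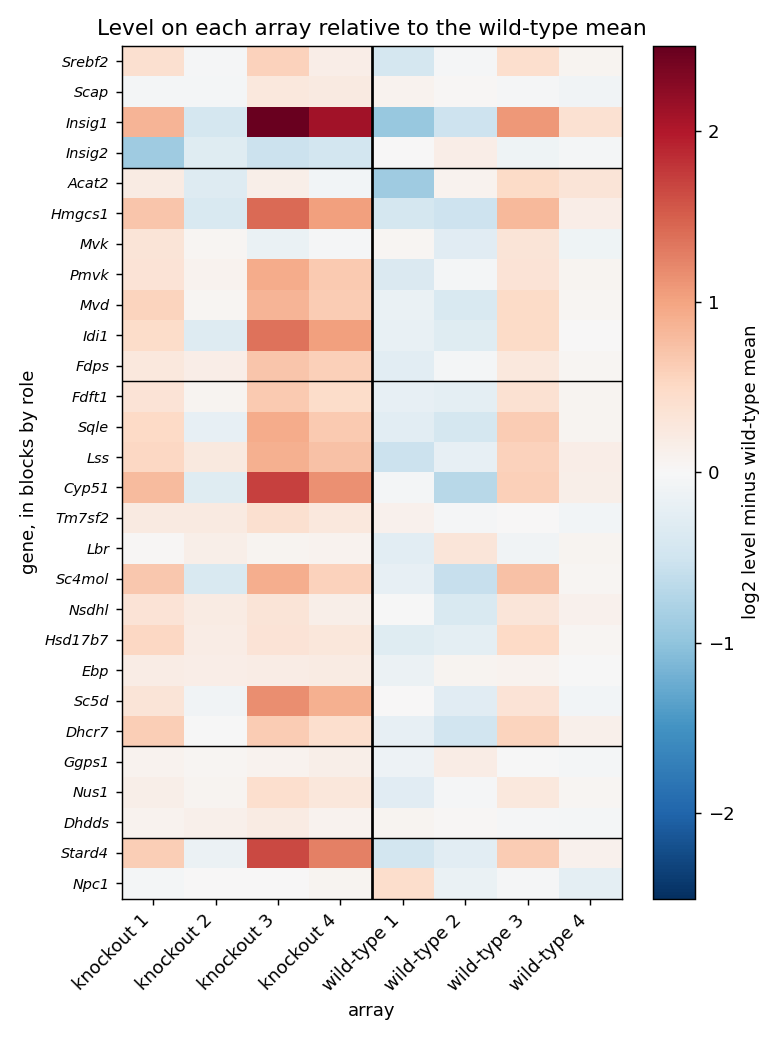
Log2 level of each of the 28 genes on each array minus the gene's wild-type mean, knockout arrays left of the black line and wild-type arrays right of it, with genes in blocks by role. Red is above and blue below the wild-type mean. Knockout 3 (mean 0.66 over the genes) and knockout 4 (0.49) are red across most rows and knockout 2 (-0.041) is near white, while Insig2 is blue on every knockout array.

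Removing each genotype's mean left the genes correlated across the 8 arrays. Over the 378 pairs of the 28 genes the median Pearson r was 0.45, against 0.0054 over all pairs of genes tested. Of these pairs 27.5% had r over 0.8, against 3.40% of all pairs, and 103 had r below 0. With 6 arrays the median was 0.51, against 0.0069 over all pairs, and 31.0% of the pairs had r over 0.8, against 6.58%. These values describe 8 points that share a slide and 2 genotypes, and they carry no test.

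Most genes with a difference of 0.3 log2 or more ran with Insig1. Stard4 had r = 0.993 with Insig1, Hmgcs1 0.969, Pmvk 0.968, Fdps 0.961 and Idi1 0.960, each across 8 arrays. Fdft1 and Sqle each had r = 0.937, Cyp51 0.909, Sc5d 0.908 and Lss and Mvd 0.905. The others with such a difference were lower, Sc4mol at 0.863, Dhcr7 at 0.776 and Hsd17b7 at 0.583. Nus1, with a smaller difference of 0.23, had r = 0.897. Srebf2 itself had r = 0.781. Another set did not run with Insig1. Ggps1 had r = 0.161, Mvk -0.019, Lbr -0.052, Dhdds -0.142, Npc1 -0.233 and Insig2 -0.323. Tm7sf2, whose groups did not overlap, had r = 0.303. Mvk lies between Hmgcs1 and Pmvk in the order of steps, and had r = 0.191 with Hmgcs1 and -0.107 with Pmvk.

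**Figure D4:**
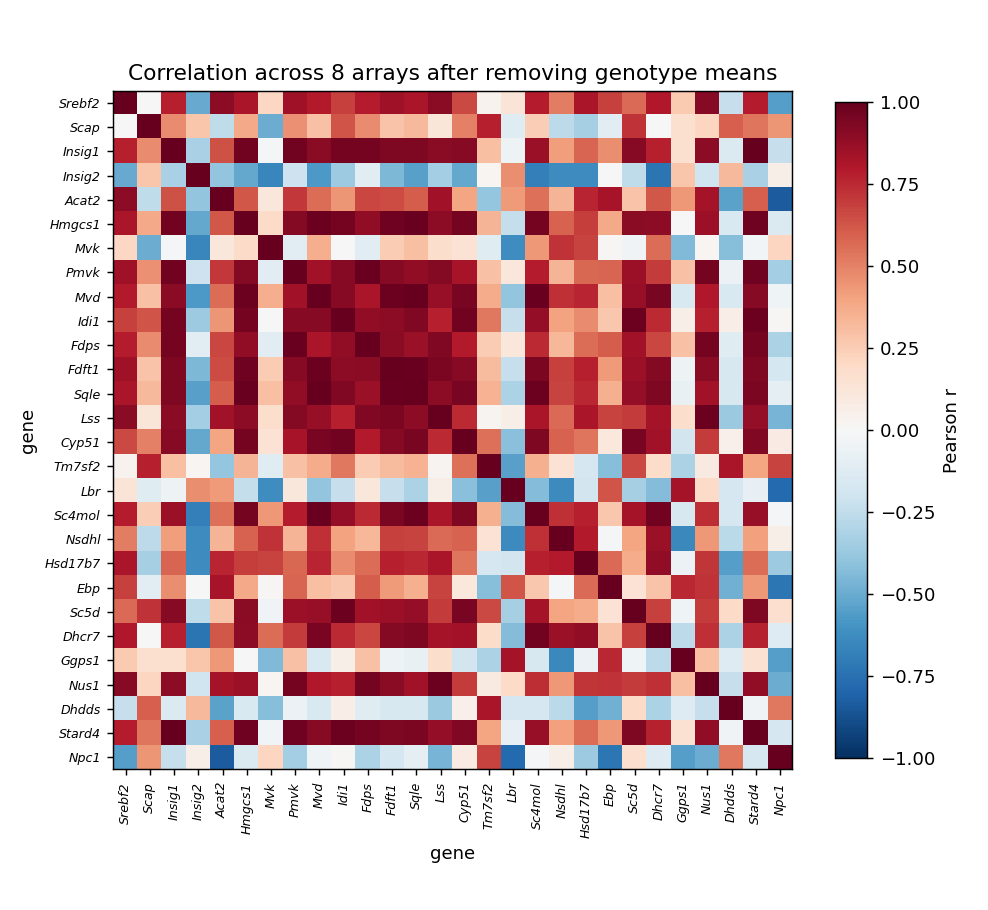
Pearson r between each pair of the 28 genes across 8 arrays after the genotype means were removed (red above 0, blue below 0). Most genes from Hmgcs1 to Cyp51 form a red block together with Insig1, Sc4mol, Sc5d and Stard4, and Insig2, Mvk, Lbr, Ggps1, Dhdds and Npc1 lie outside it. Over the 378 pairs the median r was 0.45.

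Promoter sequence was read for the 28 genes and set against all genes with a window, and no test compared genes inside and outside this block. SREBP2 binds the sterol regulatory element, usually next to sites of NF-Y, which reads CCAAT, and Sp1, which reads GGGCGG. RefSeq promoter windows (GRCm38.p6, 250 bases before to 50 after the start of transcription) were matched for 23 of the 28 genes, in 29 windows. No window was matched for Fdft1, Fdps, Npc1, Sqle and Stard4, which except for Npc1 are genes of the block. The windows shown are those of Hmgcs1 (chr13:119690101-119690400, plus strand), Insig1 (chr5:28071162-28071461, plus strand), Cyp51 (chr5:4104648-4104947, minus strand) and Mvk (chr5:114444019-114444318, plus strand), and the most upstream and the middle of the 3 windows of Insig2 (chr1:121332540-121332839 and chr1:121327975-121328274, minus strand). The first 3 belong to genes of the block, and Mvk and Insig2 to genes outside it. Each runs 5′ to 3′ on the gene's strand, and capitals mark CCAAT on either strand (ATTGG when read on the other strand) and the sterol regulatory element core TCACNCCAC.
Hmgcs1: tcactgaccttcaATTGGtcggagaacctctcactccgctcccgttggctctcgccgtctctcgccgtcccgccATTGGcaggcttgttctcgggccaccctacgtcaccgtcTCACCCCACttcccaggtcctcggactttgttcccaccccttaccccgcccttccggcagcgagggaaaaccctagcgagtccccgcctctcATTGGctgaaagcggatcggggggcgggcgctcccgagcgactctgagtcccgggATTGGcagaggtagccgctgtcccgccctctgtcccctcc
Insig1: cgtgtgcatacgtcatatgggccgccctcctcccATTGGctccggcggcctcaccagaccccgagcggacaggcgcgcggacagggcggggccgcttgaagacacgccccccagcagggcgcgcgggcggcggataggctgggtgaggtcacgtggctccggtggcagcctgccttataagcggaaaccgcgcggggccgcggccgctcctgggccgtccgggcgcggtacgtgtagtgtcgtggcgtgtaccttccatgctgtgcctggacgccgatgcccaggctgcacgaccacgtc
Cyp51: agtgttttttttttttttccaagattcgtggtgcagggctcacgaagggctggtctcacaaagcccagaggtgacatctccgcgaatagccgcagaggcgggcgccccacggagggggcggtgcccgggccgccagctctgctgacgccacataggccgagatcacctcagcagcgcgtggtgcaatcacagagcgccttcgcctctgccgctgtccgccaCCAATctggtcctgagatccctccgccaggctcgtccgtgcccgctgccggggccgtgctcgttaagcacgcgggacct
Mvk: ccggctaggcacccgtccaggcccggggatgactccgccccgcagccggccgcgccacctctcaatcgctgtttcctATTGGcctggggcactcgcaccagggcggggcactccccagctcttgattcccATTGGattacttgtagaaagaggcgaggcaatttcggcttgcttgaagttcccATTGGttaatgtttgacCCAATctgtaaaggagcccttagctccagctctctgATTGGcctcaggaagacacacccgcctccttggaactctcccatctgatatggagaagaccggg
Insig2, upstream start: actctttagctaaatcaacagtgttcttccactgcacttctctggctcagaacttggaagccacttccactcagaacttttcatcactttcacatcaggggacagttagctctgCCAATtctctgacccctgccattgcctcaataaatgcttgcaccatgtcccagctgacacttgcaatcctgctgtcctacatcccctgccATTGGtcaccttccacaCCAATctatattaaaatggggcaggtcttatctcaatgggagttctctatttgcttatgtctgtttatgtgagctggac
Insig2, middle start: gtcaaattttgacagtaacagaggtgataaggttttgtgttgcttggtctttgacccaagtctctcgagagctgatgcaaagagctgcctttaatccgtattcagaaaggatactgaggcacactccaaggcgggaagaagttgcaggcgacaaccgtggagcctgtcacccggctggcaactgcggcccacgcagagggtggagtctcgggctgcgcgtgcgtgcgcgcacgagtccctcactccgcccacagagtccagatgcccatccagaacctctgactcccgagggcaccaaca

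The core TCACNCCAC, searched on both strands, was found in the window of Hmgcs1 only, at position -137 from the start, which is 4.35% of the matched genes against 1.44% of all genes with a window. CCAAT on either strand was found for 21 of 23 genes (91.3%), against 41.1% of all genes, and GGGCGG on either strand also for 21 of 23 (91.3%), against 38.2%. Scap and Acat2 were the genes without CCAAT. Matches of different motifs can share letters at their ends. Mvk, outside the correlated block, held 5 CCAAT matches, while Insig1 and Cyp51, inside it, held 1 each. Other genes inside it held more, Hmgcs1 4 and Sc4mol 3, and outside it Ggps1 held 3 and Lbr and Dhdds 2 each. The numbers of matches thus overlapped. Insig2 held 3 matches in 1 window and 0 in both others, and the liver is known to start Insig2 from more than 1 promoter. A match is a description of the letters and not a site, and a window without one says only that these letters are not in it.

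Other genes of sterol and lipid metabolism were read from 4 lists. Of 11 genes of SREBP maturation and retention in the endoplasmic reticulum, 0 passed in either direction and the median difference was 0.019. Mbtps1, the first Golgi protease that cuts SREBPs, had 4.15, 4.26, 4.02 and 4.08 in knockout livers, against 4.30, 4.46, 4.47 and 4.38 in wild-type livers, a difference of -0.27 (SE 0.079, limma adjusted p = 0.204). Its groups did not overlap. Mbtps2, the second protease, differed by 0.15, Rnf139, a ubiquitin ligase of the sterol-sensing machinery, by 0.14, and Tmem97, a binding partner of Npc1, by 0.33. Of 16 genes of prenylation and of the dolichol and ubiquinone branches 0 passed either way, with a median of -0.053. Pggt1b and Fntb, subunits of prenyltransferases, differed by 0.18 and 0.22, Coq2 of ubiquinone synthesis by -0.14 and the dolichol kinase Dolk by -0.17.

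The third list held 18 genes of acetyl-CoA supply, fatty acid synthesis and other SREBP targets. All 18 had a higher mean in knockout livers (56.5% of all genes), 0 passed, and the median was 0.44. Acss2, which makes acetyl-CoA from acetate, had levels of 3.31, 3.41, 4.46 and 4.21 in knockout 1 to 4, against 2.70, 2.85, 3.06 and 2.80 in wild-type 1 to 4. All knockout arrays were above all wild-type arrays, and knockout 3 and 4 were again the highest. The difference was 1.00 (SE 0.26, limma adjusted p = 0.166). The desaturases Fads1 and Fads2 differed by 0.41 (SE 0.10) and 0.66 (SE 0.20), and Rdh11, a retinol dehydrogenase, by 0.64 (SE 0.16).

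Of 21 genes of sterol storage, efflux and oxysterol sensing, 9 had a higher and 12 a lower mean in knockout livers, with a median of -0.063. At an adjusted p under 0.05, 0 were called higher (0.0383% of all genes) and 2 lower (0.179%). The 2 called were Abcg5 and Abcg8, which together form the exporter that moves sterols into bile. Abcg5 had 0.34, -0.0089, 0.39 and 0.27 in knockout 1 to 4, against 2.00, 2.16, 1.81 and 1.93 in wild-type 1 to 4, a fall of 1.73 on the log2 scale that held with 6 arrays (limma adjusted p = 0.000655 with 8 arrays and 0.0477 with 6). Abcg8 differed by -1.22 (limma adjusted p = 0.0375), and did not pass with 6 arrays (limma adjusted p = 0.434). Soat2, which esterifies cholesterol in the liver, differed by -0.23 and Stard5, a sterol-binding protein, by -0.50, and neither passed.

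Some other gene groups shared the order of the mean of the 28 genes across the knockout arrays. The immediate-early list also shared it across the wild-type arrays. The fatty acid list differed there only in that wild-type 1 and 2 changed places. These 2 arrays lay close together in that list (-0.11 and -0.15) and for the 28 genes (-0.22 and -0.19). In the hypoxia list wild-type 2 and 4 changed places. Immediate-early genes, set against the wild-type mean, stood at 0.18, -0.036, 1.59 and 1.29 in knockout 1 to 4, against -0.41, -0.051, 0.33 and 0.14 in wild-type 1 to 4, and 0 of 15 passed. Hypoxia-response genes stood at 0.23, -0.026, 0.81 and 0.61 in knockout livers, against -0.15, 0.050, 0.077 and 0.027 in wild-type livers, and 0 of 15 passed. The list of fatty acid and acetyl-CoA genes stood at 0.26, 0.12, 0.90 and 0.70 in knockout livers, against -0.11, -0.15, 0.23 and 0.036 in wild-type livers. Proliferation genes had another order, at 0.081, 0.20, 0.27 and 0.23 in knockout livers. In wild-type livers they stood at -0.17, 0.18, -0.058 and 0.049, and 0 of 14 passed. Knockout 3 and 4 were the highest arrays in each, as they were for cholesterol synthesis, and the part of these groups in the result was not tested. The 8 stellate cell and fibroblast markers had the reverse of the cholesterol synthesis order across the knockout arrays, with 0 called. In 6 of the 8 the groups did not overlap, with lower knockout values (4.33% of all genes). Their mean stood at -0.26, -0.20, -0.40 and -0.39 in knockout 1 to 4. In wild-type 1 to 4 it stood at 0.068, -0.074, 0.067 and -0.061, neither that order nor its reverse. The lists of hepatocyte markers, macrophage markers and prenylation genes also had the reverse order across the knockout arrays. Their means ran there from -0.071 to 0.010, from -0.24 to 0.014 and from -0.073 to 0.049. The part of these lists in the result was not tested. The 11 erythroid markers tested ran from 0.22 to 0.34 in knockout and from -0.41 to 0.28 in wild-type livers. Pancreas genes were high on the same wild-type arrays, 3 and 4, that had the highest means for cholesterol synthesis among wild-type livers, and their part in the result was not tested.

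**Figure D5:**
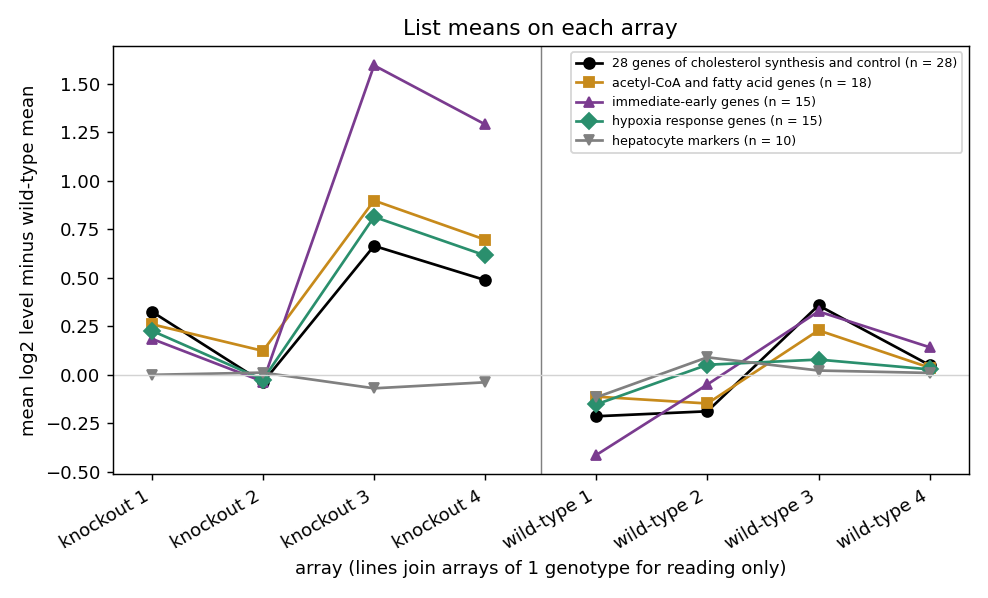
Mean log2 level of 5 gene lists on each array minus the wild-type mean, knockout arrays left of the grey line and wild-type arrays right of it. Lines join arrays of 1 genotype for reading only. The 28 genes (black) reach 0.66 in knockout 3, where the immediate-early list reaches 1.59 and the hypoxia list 0.81, and the hepatocyte markers stay between -0.12 and 0.089 on all 8 arrays.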

How the data were processed

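Total RNA of each liver was labelled with Cy3 (200 ng) and hybridised to an Agilent array, per the labels' protocols. The authors deposited spot intensity from the scanner software (Agilent Feature Extraction 10.10 in the submitters' processing notes) and a value table in log2 units, each column of which tracked that array's median spot signal in log2 (r from 0.99995 to 0.999994, medians 8.84 to 8.86). That table holds 27084 probes and was an alternative. What was done between the median signal and that table is not given in the sources used here.

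Here the processed signal was taken to log2 and each array was set to its own 75th percentile, computed without control probes. Outlier-flagged spots were left out, spots of a probe averaged, and a probe kept if well above background on at least 4 of 8 arrays. Between 58.6% and 66.2% of spots were well above background, and the number of arrays limits the precision. Each gene took its kept probe with the highest mean. Of the 44 probes of the 28 genes 43 were kept, and 13 genes had more than 1. In 11 of these all kept probes shared a direction, and the exceptions were Srebf2 and Nus1. Symbols came from RefSeq (GRCm38.p6) by accession for 27235 of 55681 probes and by synonym for 565. Probe coordinates are on mm9, per the file headers. Genotypes were compared with limma 3.58.1 (R 4.3.3), two-sided, with Benjamini-Hochberg adjustment over 23526 genes and a threshold of 0.05. The fit was also run on simulated arrays with independent noise for each gene and array. Those arrays hold neither the correlation between genes nor the likeness of replicate 4 to other arrays, so they do not test the fit under these. The series description calls the samples biological replicates. The genes and lists were chosen with earlier results of these data known. All 28 genes are named, and up to 4 genes with the smallest p of each other pathway list. Other genes of the pathway are not analysed here.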

Additional observations from a re-analysis of the deposited data

Results flagged for a closer look

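Of 102 groups of 4 arrays checked for an array far from the others (the 28 genes and the list means, in each genotype), 2 held one, and chance gives about 1 in 20. No group of a cholesterol synthesis gene was among them. The mean of the megakaryocyte markers was -0.31 in knockout 1, against -0.058 to -0.036 in the other knockout arrays, relative to the wild-type mean. The mean of the endothelial markers was 0.33 in wild-type 1, against -0.13 to -0.084 in the other wild-type arrays.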

How the results depend on the processing

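Each of the 28 differences was recomputed under 29 alternatives. Of 811 differences 773 kept their direction and stayed uncalled, 31 turned and 7 were called, and 22 genes had 1 direction in every alternative run. The 7 calls came from array weights, which called Insig2 lower and Pmvk, Fdps, Tm7sf2, Ebp, Sc5d and Stard4 higher, 6 of 28 against 6.97% of all genes and 1 against 6.28%, with 1640 genes higher and 1478 lower. These weights were 4.23 for knockout 4 and 3.34 for wild-type 4, against 0.223 to 1.18 for the others. Chosen after seeing the data, array weights with replicate 4 left out called 0 genes higher and 7 lower, and none of the 28.

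Neither the labels nor all genes together give the replicate numbers as pairs, with correlations of same-numbered arrays of -0.11, -0.029, -0.013 and 0.069 over all genes. Over the 28 genes alone they were 0.051, 0.73, 0.77 and 0.40. Arrays of the same number lay in the same row of the slide, so the replicate block is also a block by slide row. Replicate and row cannot be told apart. The replicate block called 2 genes higher and 17 lower and none of the 28. With it, 16 of the 28 were higher at an unadjusted p under 0.05 (6.06% of all genes) and 1 lower (6.35%). The unadjusted p of Insig1 was 0.00750 and that of Cyp51 0.00119 (limma adjusted p = 0.248 and 0.163).

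The genes called higher and lower among all tested were 9 and 42 in the main setting. They were 14 and 61 with quantile normalization, 14 and 60 with median centring, 13 and 121 with normexp, 23 and 117 with normexp and quantile normalization, and 15 and 112 with the uncorrected mean signal. They were 21 and 120 in the deposited table, 0 and 19 without a filter on dim probes, and 30 and 119 with trend and robust variance. They were 3 and 9 without knockout 3 and 4, 2 and 11 without wild-type 3 and 4, 3 and 15 with Xist and 13 and 78 with Ddx3y as a covariate. At thresholds of 0.01 and 0.1 they were 0 and 17, and 57 and 143. Leaving out 1 array, or replicate 4 of both groups, gave 0 to 24 higher and 6 to 66 lower, and none of the 28.

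The median difference of the 28 genes was 0.63 with Xist and 0.33 with Ddx3y as a covariate. It ran from 0.26 (without wild-type 2) to 0.50 (without wild-type 3) when 1 array, or replicate 4 of both groups, was left out, and was 0.18 without knockout 3 and 4 and 0.59 without wild-type 3 and 4. The count whose groups did not overlap was 2 with median centring, 17 without wild-type 3 and 4 (16 of them higher, 12.5% of all genes) and 4 to 12 when 1 array or replicate 4 of both groups was left out. The median correlation then ran from 0.40 to 0.63, the highest without wild-type 2.

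The differences that turned are those of 6 genes. Npc1 was -0.0099 with median centring, -0.0094 with the percentile over detected probes, -0.0086 with normexp, -0.0014 with normexp and quantile normalization, -0.0095 with the mean signal, -0.016 in the deposited table, -0.027 without knockout 3 and 4 and -0.13 without wild-type 3 and 4. In the deposited table Srebf2 was -0.040 and Mvk -0.025, and Mvk was -0.032 with Ddx3y and -0.17 with Xist as a covariate. Acat2 was 0.39 without wild-type 3 and 4 and 0.12 with Xist. Scap was -0.045 without knockout 3 and 4, and with array weights and replicate 4 left out Scap was -0.010 and Lbr -0.00055. Leaving out 1 array, or replicate 4 of both groups, gave Npc1 from -0.095 to 0.15, Acat2 from -0.30 to 0.15, Mvk from -0.044 to 0.15 and Lbr from -0.0030 to 0.19. The cause was not tested. The deposited table lacks 1 of the 28 genes.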
